A study of Mus musculus with 7 samples.

Results

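The genes described are 10 members of the Kruppel-like factor (KLF) family, Klf2, Klf3, Klf4, Klf6, Klf7, Klf9, Klf10, Klf12, Klf13 and Klf15, taken by symbol from the 23725 Entrez gene IDs counted in each library. All 10 were found, and the other 7 family genes listed (Klf1, Klf5, Klf8, Klf11, Klf14, Klf16 and Klf17) served as a comparison. The set was chosen by measured values: Klf13 was picked for its difference between tumor-bearing and tumor-free mice in these libraries, where its unadjusted p ranked 3 among all genes tested, and its paralogues were listed with their counts known. Levels and tumor differences of the set are therefore given as descriptions, without a test.

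KLFs are transcription factors of the zinc finger type that bind GC-rich and CACCC-like sites through closely related C-terminal fingers. They differ mainly in the rest of the protein. KLF9, KLF10, KLF11, KLF13, KLF14 and KLF16 recruit the repressor scaffold SIN3A, KLF3, KLF8 and KLF12 recruit the corepressor CtBP, and KLF2, KLF4, KLF6 and KLF7 belong to the group that mostly activates. In bone, KLF10 is known as an early gene induced by TGF-beta in osteoblasts, and KLF4 as a regulator of osteoblast differentiation.

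Osteoblasts came from male C57BL/6 mice of 1 genotype, with floxed p53 (p53Flox/Flox) and GFP under osteocalcin control (Ocn-GFP) among its alleles. In 4 tumor-bearing mice adenoviral Cre (AdCre), given into the trachea, had started lung tumors, and bones were taken 14 weeks later. The 3 tumor-free mice carried the same alleles, and the labels name no other treatment for them. GFP-positive cells negative for CD45, CD31 and the erythroid marker Ter119 were sorted from digested bone pooled with lineage-depleted marrow, 2000 cells per mouse, and 1 library of transcript 3′ ends was made from each mouse. The groups were matched for age, sex and litter; 1 mouse of each (tumor-bearing replicate 4, tumor-free replicate 3) was 23 weeks old, against 31 weeks for the remaining 5. The gate rests on a reporter of osteocalcin promoter activity, and such cells can span osteoblast stages.

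Libraries held 77127 to 169774 counts, so that 1 count was worth 5.89 to 13.0 CPM, the usual depth-scaled count. The limit that a count of 0 allows, 3 counts, came to 17.7 to 38.9 CPM. Total counts overlapped between the groups (exact permutation test, two-sided, p = 0.800; the smallest p that 35 splits allow is 0.0286). Of the markers that define osteoblasts, Col1a1 had 23 to 96 counts per library and Runx2 7 to 35, while the osteocalcin gene Bglap had 0 to 2 and Sp7 0 to 2. Fewer cells of a type and less RNA per cell cannot be told apart in these sorted bulk samples.

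The promoters of 3 members are shown first, because they belong to the member with the most counts (Klf13), the second (Klf4) and the one with the fewest (Klf3). Each is the 250 bases before the RefSeq start site (GRCm38.p6, the assembly of mm10), 5′ to 3′ on the gene's strand. Capitals mark the 2 classes of site that KLFs are known to bind, the GC box, GGGCGG, which reads CCGCCC from the other strand, and the CACCC box, which reads GGGTG from the other strand. The windows are chr7:63938916-63939165 (minus strand) for Klf13, chr4:55532476-55532725 (minus strand) for Klf4 and chr5:64803271-64803520 (plus strand) for Klf3.
Klf13 promoter: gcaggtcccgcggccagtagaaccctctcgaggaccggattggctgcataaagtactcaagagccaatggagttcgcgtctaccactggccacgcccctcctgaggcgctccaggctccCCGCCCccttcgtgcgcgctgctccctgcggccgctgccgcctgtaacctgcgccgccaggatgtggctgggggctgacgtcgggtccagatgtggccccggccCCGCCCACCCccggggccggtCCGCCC
Klf4 promoter: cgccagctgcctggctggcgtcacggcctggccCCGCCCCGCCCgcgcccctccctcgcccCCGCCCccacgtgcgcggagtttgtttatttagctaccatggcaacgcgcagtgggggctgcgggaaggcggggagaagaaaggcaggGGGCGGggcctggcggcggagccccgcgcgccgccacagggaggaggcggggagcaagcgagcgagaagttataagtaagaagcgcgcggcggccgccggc
Klf3 promoter: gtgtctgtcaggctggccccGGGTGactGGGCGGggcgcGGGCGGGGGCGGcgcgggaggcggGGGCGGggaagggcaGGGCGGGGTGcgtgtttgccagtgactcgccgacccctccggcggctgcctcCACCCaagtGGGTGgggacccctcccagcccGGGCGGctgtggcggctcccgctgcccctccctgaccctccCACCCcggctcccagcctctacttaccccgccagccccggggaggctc

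The Klf13 window held 3 GC boxes and 1 CACCC box, the Klf4 window 4 GC boxes and no CACCC box, and the Klf3 window 6 GC boxes and 5 CACCC boxes. In each of the 3 windows 1 pair of neighbouring matches shared bases. The richest window thus belonged to the gene with 1 count in all. Of the 9 members with a promoter in the RefSeq table, 7 held a GC box, 7 a CACCC box and 5 both. Among all 32851 windows of this length the shares were 32.7% for the GC box, 52.0% for the CACCC box and 20.1% for both. Those windows were not matched to the members for GC content, so no enrichment is read from these shares. GC content of the 9 member windows ran from 48.0% for Klf12 to 78.4% for Klf3, and a match is a description of letters, not of binding.

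Counts of the family were concentrated in 1 gene. Klf13 gave 465 of the 601 counts of the 10 members over the 7 libraries (77.4%), Klf4 gave 74 (12.3%), and the other 8 together gave 62 (10.3%). Klf13, Klf4 and Klf9 were the 3 members with a count in every library, and Klf2, Klf3, Klf12 and Klf15 never exceeded 1 count in any. Klf13 was also the 1 member of 10 that passed the low count filter and entered the fit across 2495 genes. The other 9 are described by their counts.

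**Figure D1:**
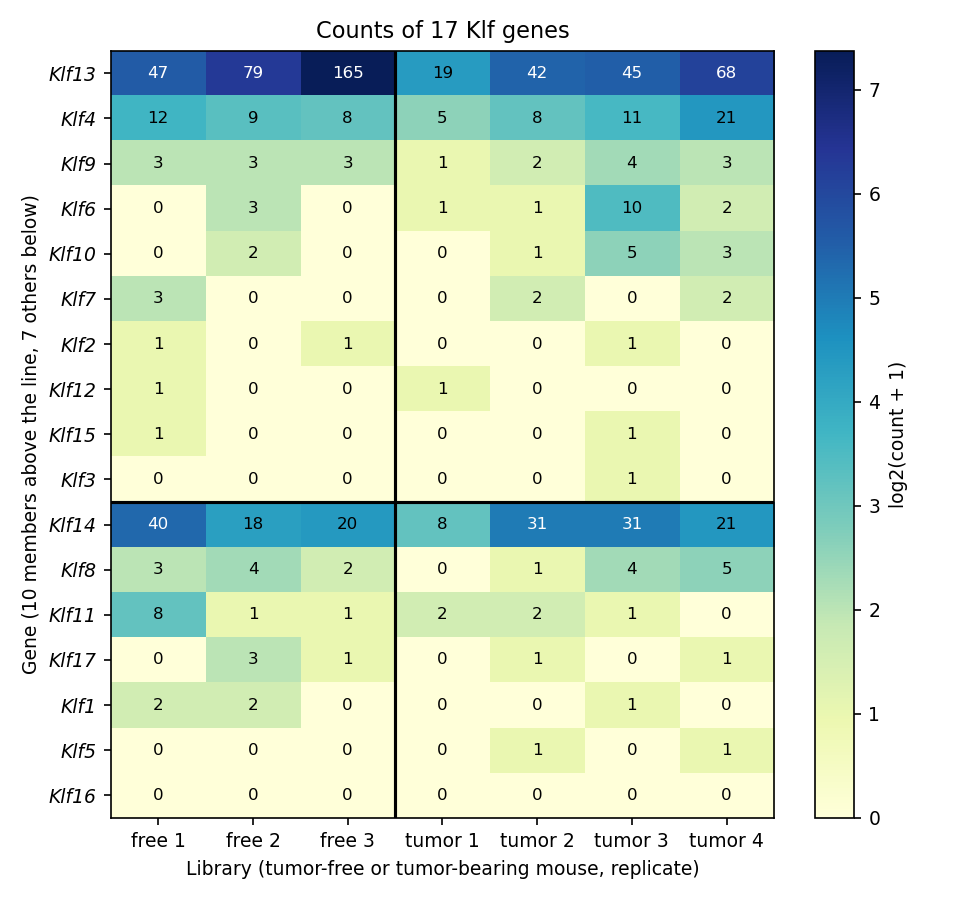
Counts of 17 Klf genes (rows; the 10 members above the line) in each library (columns; tumor-free replicates 1 to 3, then tumor-bearing replicates 1 to 4), coloured by log2(count + 1). Klf13 has 19 to 165 counts and Klf14 8 to 40, while most other cells hold 0 to 5.

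Klf13 encodes a factor of the SIN3A-binding group that was first described as an activator of the chemokine gene Ccl5 in T cells. It lies on chromosome 7 (63886351 to 63938915, mm10, minus strand). In GENCODE vM21 the last exon, with most of the 3′ untranslated region, holds 5447 of the 6396 bases of its longest transcript. No exon of another annotated gene overlaps its exons. An opposite-strand gene inside its body, E030018B13Rik, had 0 to 2 counts.

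In tumor-bearing replicates 1 to 4, Klf13 stood at 261, 441, 253 and 464 CPM (19, 42, 45 and 68 counts). In tumor-free replicates 1 to 3 it stood at 457, 671 and 1330 CPM (47, 79 and 165 counts). Tumor-bearing replicates 1 to 3 lay below every tumor-free library, and the groups overlapped by a single pair: tumor-bearing replicate 4 was above tumor-free replicate 1. The means were 355 ± 114 CPM (SD, n = 4) with a tumor and 819 ± 455 CPM (SD, n = 3) without. The fitted log2 fold change, with age in the model, was -1.06 (SE 0.29), a level 2.08-fold lower with a tumor.

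Klf13 owed much of its tumor-free mean to 1 mouse. Tumor-free replicate 3 held 35.5% of all Klf13 counts but 14.3% of the counts of the 7 libraries. Without it the log2 fold change was -0.84 (SE 0.36), still on the lower side. Over all 2495 genes, edgeR's quasi-likelihood test called 0 higher and 0 lower (0% each), Klf13 included, and neither DESeq2 nor limma voom called any. With unadjusted p below 0.05, edgeR gave 25 higher and 42 lower genes, DESeq2 13 and 36, and limma voom 54 and 41.

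**Figure D2:**
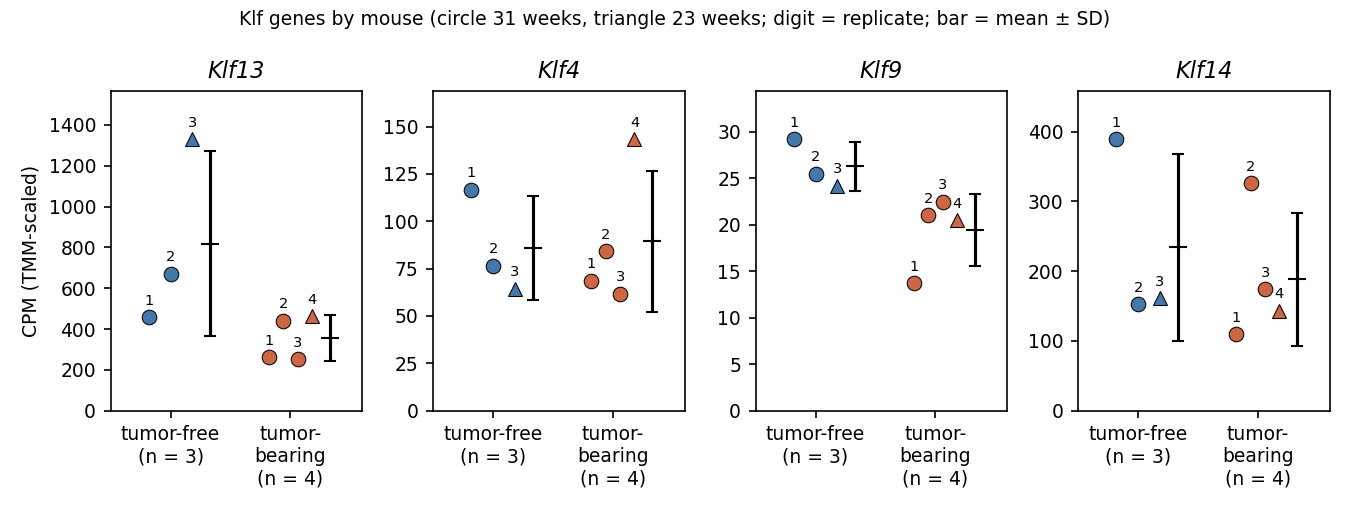
CPM on TMM-scaled libraries for Klf13, Klf4, Klf9 and Klf14, 1 point per mouse (blue tumor-free, orange tumor-bearing; circles 31 weeks, triangles 23 weeks; digits are replicates; bars are mean ± SD, n = 3 and 4). Klf13 in tumor-free replicate 3 stands at 1330 CPM, above all other mice, whereas Klf4 and Klf14 overlap throughout.

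The 2 ages were spread over both groups, which allowed the comparison within an age. Among 31-week mice, Klf13 stood at 318 ± 107 CPM with a tumor (SD, n = 3) and 564 ± 151 CPM without (SD, n = 2), and here the groups did not overlap. Non-overlap in these 5 libraries was common: the tumor-bearing mice were lower for 8.46% of the genes tested and higher for 10.1%. The fit on 31-week mice alone gave a log2 fold change of -0.85 (SE 0.37). The single pair of 23-week mice stood at 464 CPM with a tumor and 1330 CPM without, 2.87-fold apart, with no replicate.

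Age was not used to choose the genes, but the age contrast is not independent of that choice. Tumor-free replicate 3, which raised the tumor-free mean of Klf13, is also 1 of the 2 young mice. Both 23-week mice had the highest Klf13 value of their group. The log2 fold change of 31-week over 23-week mice was -0.94 (SE 0.30), 1.92-fold higher in the younger mice, and did not pass edgeR's quasi-likelihood test (adjusted p = 0.884). That test called 0 of 2495 genes by age (0%), with 39 higher and 86 lower in older mice when unadjusted p below 0.05 was counted (125 genes; 85 with DESeq2 and 168 with limma voom). The value rested on 2 young mice and was -0.58 (SE 0.44) without tumor-free replicate 3.

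**Figure D3:**
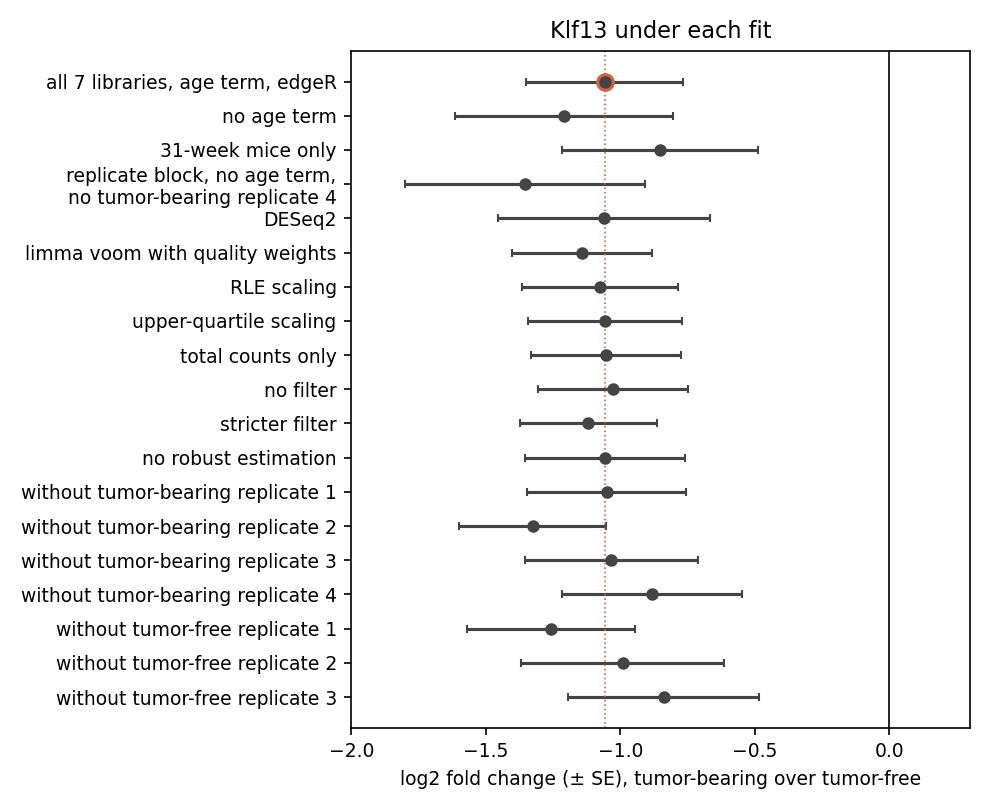
Log2 fold change of Klf13, tumor-bearing over tumor-free (horizontal axis, point ± SE), in the fit of all 7 libraries with age (orange) and in each of 18 alternatives (rows). All points lie between -1.35 and -0.84, and the lowest belongs to the fit with the replicate number as a block, which also has no age term and lacks tumor-bearing replicate 4.

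Klf4, an activator of the family known for reprogramming cells to pluripotency and for restraining growth, was the second member by counts. It had 5, 8, 11 and 21 counts in tumor-bearing replicates 1 to 4 and 12, 9 and 8 in tumor-free replicates 1 to 3. In CPM these were 68.6, 84.1, 61.8 and 143 against 117, 76.4 and 64.5, and the groups overlapped throughout. The means were 89.4 ± 37.1 CPM (SD, n = 4) and 85.9 ± 27.4 CPM (SD, n = 3). Klf4 fell under the filter. In the fit without a filter its log2 fold change was 0.11 (SE 0.45), against -1.03 (SE 0.28) for Klf13.

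The ratio of the 2 genes within a library does not depend on scaling. Klf13 had 3.24 to 5.25 counts per Klf4 count in the tumor-bearing libraries. In tumor-free replicates 1 to 3 it had 3.92, 8.78 and 20.6. Tumor-free replicate 1 lay inside the tumor-bearing range and replicates 2 and 3 above it. The ratios divide by 5 to 21 Klf4 counts, 8 of them in tumor-free replicate 3, so a few counts would move them. They also reuse the Klf13 values for which that gene was chosen.

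Klf9, induced by glucocorticoids and thyroid hormone and like Klf13 a SIN3A-binding factor, was the third member by counts, with 1 to 4 in each library. It stood at 13.7, 21.0, 22.5 and 20.5 CPM in tumor-bearing replicates 1 to 4 and at 29.2, 25.5 and 24.2 CPM in tumor-free replicates 1 to 3. The groups did not overlap, but each value rests on 4 counts or fewer. Among the genes tested, which do not include Klf9, 1.32% had every tumor-bearing library below every tumor-free one and 2.2% the reverse. Pooled over libraries, Klf9 had 10 counts with a tumor, 20.5 CPM with an exact Poisson 95% interval of 9.85 to 37.8, and 9 counts without, 26.2 CPM, inside that interval. These intervals cover counting error only.

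Klf10, the TGF-beta inducible member, had 0, 1, 5 and 3 counts in tumor-bearing replicates 1 to 4 and 0, 2 and 0 in tumor-free replicates 1 to 3. Its pooled level was 18.5 CPM (8.45 to 35.1) with a tumor and 5.82 CPM (0.705 to 21.0) without. Klf10 therefore leaned to the side opposite to Klf13, within counting error.

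Klf6, an activator that responds to tissue injury, had 1, 1, 10 and 2 counts with a tumor and 0, 3 and 0 without. Its pooled level was 28.7 CPM (15.7 to 48.2) against 8.73 CPM (1.80 to 25.5). Of its 14 tumor-bearing counts 10 came from replicate 3, the deepest library, and the pooled intervals overlap. Klf7, studied mainly in neurons and fat cells, had 4 counts with a tumor (8.21 CPM, 2.24 to 21.0) and 3 without (8.73 CPM, 1.80 to 25.5), all 3 of them in tumor-free replicate 1.

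The remaining members were at the edge of detection. Klf2, a factor of endothelium and resting lymphocytes, had 3 counts in all, Klf12 and Klf15 had 2 each, and Klf3 had 1. KLF12 and KLF3 are the CtBP-binding repressors of the set, and KLF15 is a glucocorticoid-induced regulator of metabolism. The pooled intervals over the 7 libraries reached at most 10.6 CPM for Klf2, 8.70 CPM for Klf12 and Klf15 and 6.71 CPM for Klf3. Differences between the groups were not detectable at this depth for these 4 genes.

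**Figure D4:**
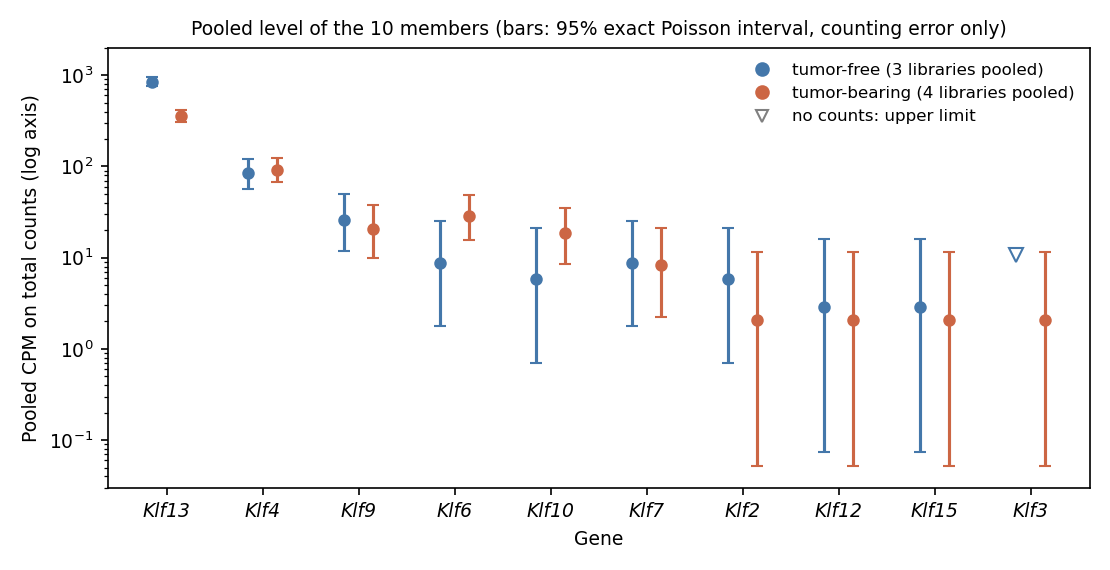
Pooled CPM on total counts (log axis) of the 10 members in the 3 tumor-free (blue) and 4 tumor-bearing libraries (orange), with exact Poisson 95% intervals for counting error. Apart from Klf13, at 847 and 357 CPM, the intervals of the groups overlap for each member. These intervals leave out the spread between mice, and single mice of the groups overlap for Klf13, which was chosen for this difference. The open triangle is the upper limit for Klf3, which had no tumor-free count.

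Klf13 gave more counts than the other 9 members together in every library. Its share of the members' counts was lowest in tumor-bearing replicate 3 (57.7%, Wilson 95% interval 46.6% to 68.0%) and highest in tumor-free replicate 3 (93.2%, 88.5% to 96.1%). The other 9 members together stood at 104, 142, 194 and 219 CPM in tumor-bearing replicates 1 to 4, and at 206, 138 and 101 CPM in tumor-free replicates 1 to 3, on total counts. Those sums overlapped, and tumor-free replicate 3, the highest library for Klf13, was the lowest for the rest of the set, with 12 counts. Its gap to tumor-bearing replicate 1, with 8 counts, is under the 8.43 CPM that 1 count is worth in tumor-free replicate 3.

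Among the 7 other family genes, Klf14 was the 1 that could be tested. It is an intronless, imprinted SIN3A-type gene on chromosome 6, and had 8, 31, 31 and 21 counts in tumor-bearing and 40, 18 and 20 in tumor-free libraries. In CPM it stood at 110, 326, 174 and 143 against 389, 153 and 161, and the groups overlapped. Its log2 fold change was -0.33 (SE 0.45) (95% interval -1.38 to 0.72), and 0.19 (SE 0.48) without tumor-free replicate 1. By age it lay on the other side from Klf13, at 0.59 (SE 0.51; adjusted p = 0.973, edgeR). Klf16, from which Klf14 is thought to have arisen as a retrotransposed copy, had 0 counts in all 7 libraries, and Klf8 and Klf11 had 19 and 15 counts in all.

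Per kilobase of the longest GENCODE transcript, Klf13 averaged 86.6, Klf14 68.1, Klf4 29.0, Klf9 4.98 and Klf6 4.04 CPM per kb. Klf13 was above Klf4, and Klf4 above Klf9, in each of the 7 libraries. Counts of 3′ ends need not scale with transcript length, and the order of Klf13 and Klf14 depended on the scale. In CPM Klf13 was above Klf14 in all 7 libraries, whereas per kb Klf14 was higher in tumor-bearing replicates 2 and 3 and in tumor-free replicate 1. By mean CPM on total counts, Klf13 ranked 491 among the 13344 genes with any count, Klf14 1302, Klf4 2343 and Klf9 4525.

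Libraries primed on poly(A) can also pick up A-rich stretches inside a transcript. Counting stretches with at least 11 A in 12 bases, without the last 100 bases, Klf13 held 1, Klf4 3, Klf9 4, Klf7 5 and Klf14 0. The part of such priming in the counts was not tested. Klf3 and Klf7 have opposite-strand genes that overlap their exons, and with no strand setting named in the sources, reads of such pairs cannot be told apart.

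Genes that act with or through KLFs were sparse, and none passed the test by tumor or by age (edgeR, adjusted). Of 15 cofactors 4 were tested, 2 above 0 and 2 below (median log2 fold change 0.03, against 0.04 over all genes tested). Ncor1, a corepressor, stood at 0.14 (SE 0.23), Fhl3, a LIM protein that binds KLF3, at -0.07 (SE 0.23) and Ctbp2, the CtBP partner of KLF3 and KLF12, at -1.86 (SE 0.88), with 95 of 172 counts in tumor-free replicate 1. Of the SIN3 complex itself, Sin3a had 1 to 9 counts per library and fell under the filter. Of 9 genes of the related Sp family 3 were tested, with a median of 0.08: Sp8 at 0.08 (SE 0.45), Sp3 at -0.41 (SE 0.42) and Sp9 at 0.24 (SE 0.32).

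Upstream of Klf2 and Klf4, 2 of 11 genes of the MEK5, ERK5 and MEF2 pathway were tested, the deacetylase gene Hdac5 at 0.39 (SE 0.33) and the MEF2 gene Mef2c at -0.52 (SE 0.45). Mapk7, which encodes ERK5, had 0 counts in all 7 libraries. Of 10 genes for ubiquitin ligases and deubiquitinases 1 was tested, Fbxo32 at 0.05 (SE 0.19). None of 15 glucocorticoid response genes passed the filter, although 12 had a count, and the receptor gene Nr3c1 had 0 to 2 counts per library.

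Of 28 reported KLF targets 3 were tested, 1 above 0 and 2 below, with a median of -0.26. The cell cycle inhibitor gene Cdkn1b stood at -0.26 (SE 0.25) and Smad2, a TGF-beta mediator, at 0.04 (SE 0.32). Smad7, its inhibitor and a gene that KLF10 represses, stood at -1.81 (SE 0.71), but 94 of 164 counts of Smad7 lay in tumor-free replicate 2 alone. Ccl5, the target for which Klf13 was first described, had 0 counts everywhere. Of 26 listed immediate early and dissociation genes, to which Klf2, Klf4 and Klf6 are often added, 3 were tested: Btg1 at -0.20 (SE 0.32), Btg2 at 0.16 (SE 0.49) and Fos at -1.28 (SE 0.54), with a median of -0.20. Fos was at 0, 63.1, 101 and 88.7 CPM in tumor-bearing and 107, 144 and 322 CPM in tumor-free libraries. The value of 0 came from the shallowest library. Its groups did not overlap, which in this direction held for 1.32% of the genes tested, against 2.2% in the other. Like Klf13, Fos was highest in tumor-free replicate 3. The other tested genes of this list, Btg1 and Btg2, were not, at 145 and 185 CPM there against highest values of 407 and 461 CPM. The part of tissue digestion in Klf13 or Fos was not tested.

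Markers of other cell types that express KLFs were read beside the Klf13 difference. The summed level of 13 lymphocyte genes, 8 of them with a count, was 742 to 932 CPM with and 636 to 1017 CPM without a tumor. Cd8b1 (32 to 65 counts) and Cd3d (16 to 34) gave most of it, while Ptprc, which encodes CD45, had 0 to 2 counts and Cd79a, Cd79b, Nkg7 and Klrb1c had none. Endothelial markers summed to 0 to 11.8 CPM against 0 to 19.6 CPM, with 7 of 10 at 0, Pecam1, Kdr and Tek among them. Neutrophil and macrophage markers summed to 376 to 445 CPM against 358 to 455 CPM, with 9 of 14 at 0, among them S100a8, Elane and Lyz2. Itgam (19 to 45 counts) and Csf1r (8 to 24) gave nearly all of that sum.

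Erythroid genes, of which all 9 found had a count and which include Klf1, summed to 91.8 to 121.8 CPM with a tumor and 122.04 to 196 CPM without. These ranges do not overlap, but the gap is under the 5.89 CPM that a single count is worth at least. The 14 osteoblast genes, all counted at least once, summed to 1595, 1096, 1213 and 1349 CPM in tumor-bearing replicates 1 to 4. In tumor-free replicates 1 to 3 they summed to 2565, 1538 and 1559 CPM. The groups overlapped through tumor-bearing replicate 1 alone, and the other tumor-bearing libraries lay below every tumor-free one. Col1a1 was the largest part of the sum in tumor-free replicate 1, with 96 counts. The highest library for both the erythroid and the osteoblast sum was tumor-free replicate 1, which had the lowest tumor-free value of Klf13. The 9 stromal and adipocyte genes, with Adipoq, Fabp4 and Plin1 at 0, summed to 724 to 934 CPM against 626 to 818 CPM. Lepr alone (58 to 123 counts) gave most of that sum. The part of these cells in the Klf13 difference was not tested.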

How the data were processed

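The deposited values are raw counts for each Entrez gene ID, with a separate file for every mouse. Per the labels' protocols, 3′ end libraries came from a CEL-Seq variant that carries unique molecular identifiers. Per the submitters' processing notes, TopHat2 2.0.10, SAMtools and build mm10 were used. Counting program, gene annotation, strandedness and any collapsing of identifiers: not given in the sources used here.

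A RefSeq table of GRCm38.p6 gave symbols to 23666 of 23725 IDs. Genes were filtered with filterByExpr (minimum count 10, minimum total 15), scaled by TMM and tested with glmQLFit (robust, prior count 0.125) and glmQLFTest of edgeR 4.0.16 in R 4.3.3, with age and group as factors, and adjusted by Benjamini-Hochberg at 0.05 over 2495 genes. On simulated data with these group sizes, the procedure called 4.59% of genes changed 2-fold, 87.7% changed 4-fold and 100% changed 8-fold. The simulation gave each gene the spread typical of its level, held no age effect and changed many genes at once. For single genes, or genes with more spread than is typical, these shares can be too high. The lack of calls therefore says little about changes near 2-fold. The size fitted for Klf13 is near that value too, but it can be too large, because Klf13 was chosen for this difference. Fold changes are on the log2 scale, with tumor-free mice as the base. CPM are on TMM-scaled totals, except pooled levels, ranks, marker sums and sums over members, which are on total counts.

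An allele that all the mice carry and a marker gene are not reported here. The members, lists and rules were chosen with earlier results of these data known. All members were named, and up to 3 tested genes per related list by mean CPM; the other genes named, as low or unmeasured examples, were chosen after their counts were seen. Alternatives left out the age term, kept the 31-week mice alone, or blocked on replicate number (without the age term and without tumor-bearing replicate 4, which has no partner); others used DESeq2 1.42.0, limma 3.58.1 voom with quality weights, RLE, upper-quartile and total count scaling, no filter, a stricter filter (30 counts in 3 libraries), no robust estimation, and each library left out.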

Additional observations from a re-analysis of the deposited data

Results flagged for a closer look

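In 6 of the 17 Klf genes, 1 tumor-bearing library stood apart from the other 3, with a gap to the nearest over the whole range above 0.829. For Klf6 the ratio was 0.930: tumor-bearing replicate 3 stood at 56.2 CPM (10 counts) and the next library at 13.7 CPM. For Klf2, Klf3, Klf15 and Klf1 (replicate 3) and for Klf12 (replicate 1) it was 1, and each of these rests on a single count with the other libraries at 0. Chance alone flags about 1 in 20 groups, and at single counts the measure has no meaning beyond the count itself.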

How the results depend on the processing

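The log2 fold change of Klf13 kept its sign in all 18 alternatives (-1.35 to -0.84), and by age in all 15 (-1.23 to -0.58), where it was called in none. These fits reuse the libraries in which Klf13 was chosen for its tumor difference, so the kept sign is a description and no independent support. The age contrast shares tumor-free replicate 3 with that choice. The median over members tested in the fit of 7 libraries is Klf13 alone (-1.06): it was -1.35 in the fit with the replicate block, and -1.33 to -0.84 without each library in turn. Klf14 ran from -0.68 without tumor-free replicate 2 to 0.19, a reversed sign, without tumor-free replicate 1; the cause was not tested. Genes called by tumor were 0 in every fit. Genes called by age were 20 with no filter, where 13344 genes were fitted, and 0 to 1 with a library left out, the 1 without tumor-free replicate 3. Leaving out a 23-week mouse leaves 1 mouse of that age, assumed to vary like the others. Same-numbered mice did not deviate together (correlations of -0.20, -0.12 and -0.14 over genes). Pairs with different numbers, among replicates 1 to 3, lay at -0.02 to 0.21. Values were centred within each group, which ties these correlations to one another, so they cannot be read plainly against 0. The block joins mice by replicate number: those of replicates 1 and 2 share an age, and those of replicate 3 do not. These correlations cannot tell whether same-numbered mice shared a litter. The block fit also dropped the age term and tumor-bearing replicate 4; it called 0 genes and gave Klf13 -1.35 (SE 0.44), against -1.21 with no age term and no block. At 5.89 to 13.0 CPM per count, depth left 9 of 10 members untested.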

Other observations

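Some cofactors (Sin3b, Ctbp2), a gene of the related Sp family (Sp8) and an immediate early gene (Btg2) took much of their total from 1 library, in these 4 cases not the one in which Klf13 was highest. These were picked after their counts were seen. Sin3b, a scaffold of the SIN3 complex, drew 124 of 150 counts from tumor-free replicate 2, with 0 to 9 elsewhere. Ctbp2 had 95 of 172 in tumor-free replicate 1, and 46 in tumor-bearing replicate 3. Sp8 had 131 of 333, and Btg2 82 of 205, in tumor-bearing replicate 3. Others of the related lists did peak in the library where Klf13 was highest. Fos had 40 of 105, and Atxn3 18 of 34, in tumor-free replicate 3, and both were also picked after their counts were seen. Klf13 itself had 165 of 465 in tumor-free replicate 3, with at least 19 counts in each other library.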
